A study of Mus musculus with 10 samples.

Results

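T and natural killer (NK) cell genes were followed in the livers of aged mice: 34 genes of the T cell receptor complex, its proximal signalling, lymphocyte cytokine receptors, cytotoxic effectors, NK receptors, T-box factors and costimulatory or checkpoint receptors. They were taken by gene symbol from a table of 55487 genes, and all 34 were found. The liver RNA came from mice of strain C57B/6J, as the labels spell it, at an age of 22 months on a normal chow diet, and was primed with oligo-dT and sequenced in 10 libraries. The 5 control libraries, called Flox, were from mice with both Arg2 alleles floxed (Arg2fl/fl), and the 5 called LKO were from co-housed littermates in which Arg2, the gene of the mitochondrial arginase, is deleted in hepatocytes (Arg2LKO). The deletion is therefore in hepatocytes and not, by design, in the lymphocytes whose genes are described here, and the Cre driver is not given in the sources used here. No label says that each library is a separate mouse, so p-values measure only the spread between these libraries, which may be technical.

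A T cell recognises antigen through the T cell receptor, which signals through the CD3 chains: the kinase Lck, carried by the coreceptors CD4 and CD8, phosphorylates them, the kinase Zap70 docks on the phosphorylated chains, and Zap70 then phosphorylates the scaffold Lat. Interleukins that keep T and NK cells alive and dividing act through receptors built on the common gamma chain (Il2rg), and activated killer cells release perforin and granzymes. The liver is known as a site rich in NK cells, innate-like T cells and memory CD8 T cells, but hepatocytes make most of the RNA of whole liver, so lymphocyte transcripts are expected to be scarce in it.

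Most of the 34 genes had a lower mean level in LKO livers, at very low levels and with wide spread between libraries, and none passed the test over all genes. Mean CPM (counts scaled to library size, with edgeR's TMM factors between libraries) was lower in LKO for 32 of the 34 genes, the exceptions being Cd4 and the NK receptor gene Klrb1c. A total of 31 of them had a mean under 2 CPM in both groups, and 28 had a mean under 1 CPM in both. Il21r, Lck, Il2rb, Lat and Cd5 had the smallest p-values, with LKO means lower by 2.29-fold (Il2rb) to 4.64-fold (Il21r). Of these, Il21r and Cd5 passed the count filter mainly through their Flox levels. Zap70, by far the most abundant of the 34, differed between the groups by less than the spread between libraries.

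By edgeR's quasi-likelihood test of LKO against Flox, 24 of the 34 genes had enough counts to be tested, and 0 of the 24 passed a Benjamini-Hochberg adjusted p of 0.05 over the 15894 genes tested (adjusted p 0.652 to 0.958). No other gene of the table passed either, the smallest adjusted p being 0.652, while 1193 genes had an unadjusted p under 0.05. Of the 24, 23 had a lower fitted level in LKO, beside 51.6% of all tested genes, and 11 had an unadjusted p under 0.05 on the lower side, beside 4.33% of all tested genes. On the higher side it was 0 of 24, beside 3.17%. Limma-voom, which weights the libraries by quality, had 0 genes at an adjusted p under 0.05 (1049 at an unadjusted p under 0.05) and had 7 of the 24 lower at an unadjusted p under 0.05, beside 3.03%. DESeq2 called 11 of all genes at an adjusted p under 0.05 (0.0692%) and had 11 of the 24 lower at an unadjusted p under 0.05, beside 4.99%. In the edgeR fit the median log2 fold change of the 24 (LKO minus Flox) was -0.92, beside -0.01 over all tested genes, and the median standard error (SE) was 0.52, beside 0.18. The filter asked for about 0.207 CPM in at least 5 libraries, and 14 of the 24 had more Flox than LKO libraries at that level. The direction among tested genes is therefore not independent of the filter. Il21r, Cd5 and Cd247 had only 1 LKO library at that level, so they were tested mainly through their Flox levels. Of the 6 genes with all 5 LKO libraries at that level, 3 were lower at an unadjusted p under 0.05 by edgeR, beside 4.33% of all tested genes. With no filter, 32 of 34 were lower, beside 51.3% of 32998 genes, and 12 had an unadjusted p under 0.05, beside 3.51%. With at least 1 CPM asked for in 5 libraries only 2 of the 34 genes were left, Zap70 and Il2rg, of which 1, Il2rg, was lower at an unadjusted p under 0.05, beside 4.44%.

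**Figure D1:**
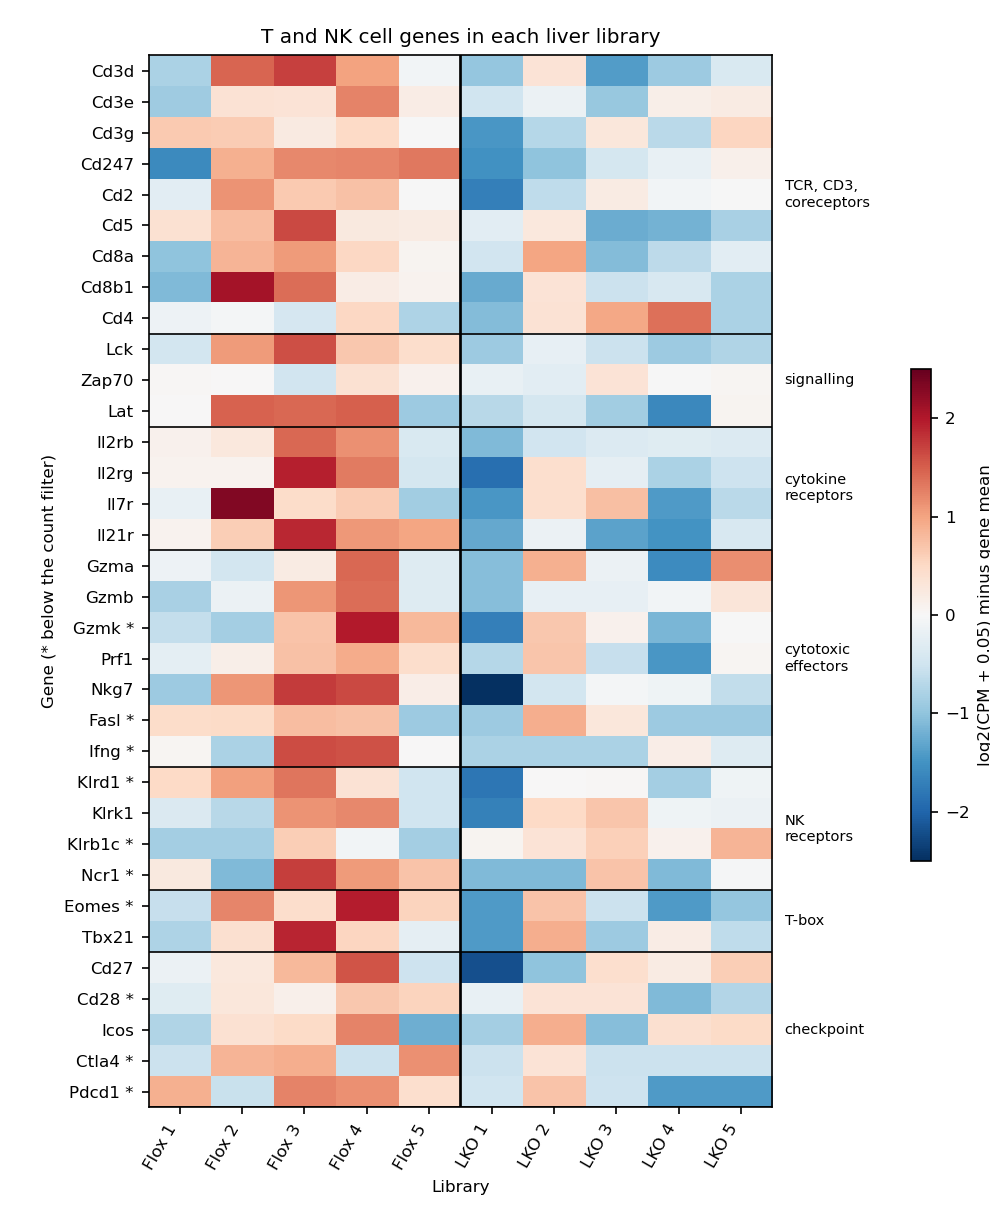
Heat map of the 34 T and NK cell genes (vertical axis, grouped by role) in the 10 libraries (horizontal axis); colour is log2(CPM + 0.05) minus the gene's mean over the libraries, and a star marks the 10 genes below the count filter. Flox libraries 2, 3 and 4 hold most of the red cells and LKO library 1 most of the dark blue ones, while the rows of Cd4 and Klrb1c are redder on the LKO side and that of Zap70 is nearly white throughout.

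The libraries held 43331354 to 54951415 counts, with 21937 to 23811 genes detected in each. Arg2 itself had 9 counts over the 5 Flox libraries and 10 over the 5 LKO libraries, below the filter, so these counts do not check the deletion. Among the libraries, Flox 3 and Flox 4 were each highest for 9 of the 24 tested genes and Flox 2 for 3, whereas LKO 1 was lowest for 12 and among the lowest 3 for 21. The same 3 Flox libraries had the highest summed level of 14 acute phase genes, the liver proteins that increase in inflammation: 73970, 106690 and 38420 CPM in Flox 2, 3 and 4, beside 18885 and 13598 CPM in Flox 1 and 5 and 14259 to 27677 CPM in LKO. When edgeR's quasi-likelihood test was run without Flox 2 and 3, Il21r (edgeR unadjusted p = 0.00299), Lck (edgeR unadjusted p = 0.0177) and Il2rb (edgeR unadjusted p = 0.0220) were the 3 of the 11 genes still under 0.05, beside 1.39% of all genes on the lower side. The part of an inflammatory state of the Flox 2 and 3 livers in the differences below was not tested.

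Per kilobase of exon, a rough scale for comparing genes, Zap70 led in both groups, at 4.34 CPM per kb in Flox and 4.22 in LKO. The length is that of all annotated exons of a gene, which need not be the length of the transcripts expressed. In Flox it was followed by Il2rg at 1.26 CPM per kb, Nkg7 at 1.15, Cd8b1 at 0.532, Cd2 at 0.530 and Gzmb at 0.525. In LKO the corresponding levels were 0.504, 0.349, 0.186, 0.283 and 0.314 CPM per kb. The SDs of neighbours overlap throughout this order below Zap70 (in Flox, Il2rg had an SD of 0.910 and Nkg7 of 0.720 CPM per kb), so only the place of Zap70 stands clear of the spread. The lowest levels were those of Ctla4 and Klrb1c, at 0.0239 and 0.00826 CPM per kb in Flox.

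**Figure D2:**
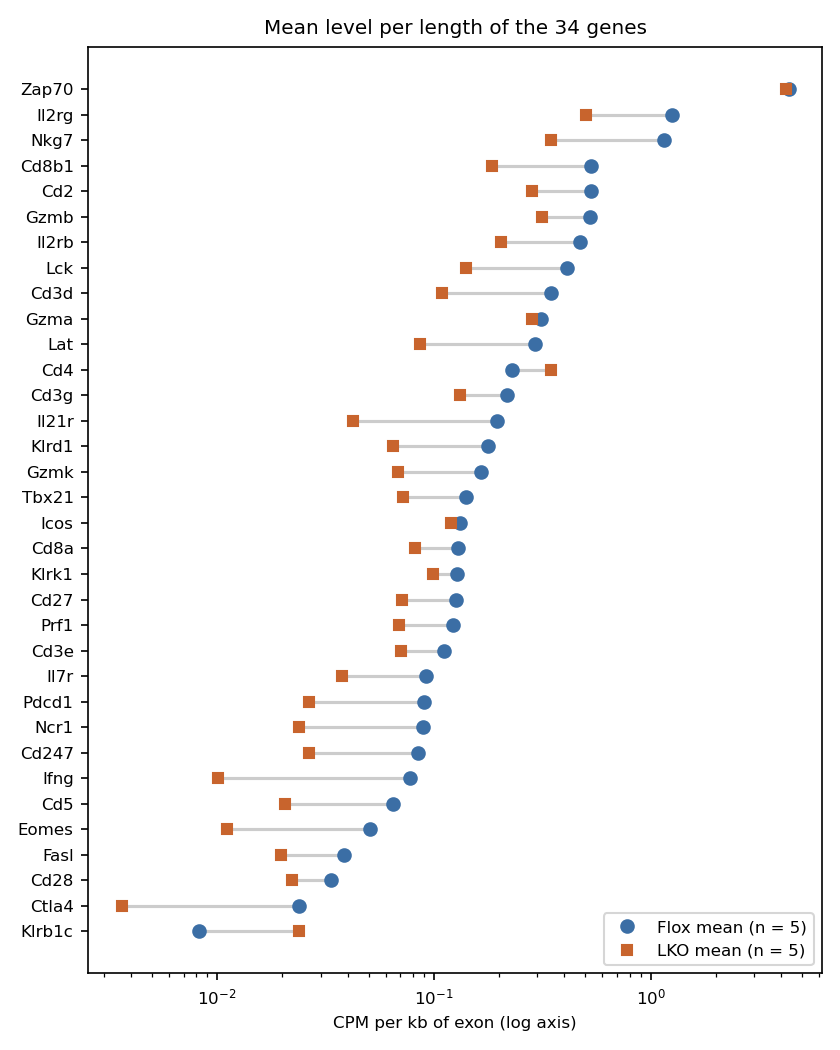
Mean level per length of each of the 34 genes (vertical axis) in CPM per kilobase of exon (horizontal log axis), with circles for the mean of the 5 Flox libraries and squares for the mean of the 5 LKO libraries. The square lies left of the circle for 32 genes and right of it for Cd4 and Klrb1c, and Zap70 stands alone at the top with 4.34 and 4.22 CPM per kb.

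The windows upstream of the start sites of 4 of the genes with the smallest p-values are shown with that of Zap70, the gene of the same pathway whose groups overlapped almost completely, so that the regulatory sequence of both kinds can be seen. They are the 250 bases before the RefSeq start on build GRCm38.p6, 5′ to 3′ on the gene's strand, for Il21r (chr7:125603179-125603428, plus strand), for both start sites of Lck, which lie 15269 bases apart (chr4:129573642-129573891, minus strand, and chr4:129558373-129558622, minus strand), for Lat (chr7:126369569-126369818, minus strand), for Cd5 (chr19:10738975-10739224, minus strand) and for the first of 3 start sites of Zap70 (chr1:36761548-36761797, plus strand). Capitals mark the matches, on either strand, to letters bound by 4 families of lymphocyte transcription factors: GGAAG (or CTTCC) for ETS factors, TGTGGT (or ACCACA) for RUNX factors, CTTTGA (or TCAAAG) for TCF and LEF factors, and GGTGTGA (or TCACACC) for T-box factors.
Il21r: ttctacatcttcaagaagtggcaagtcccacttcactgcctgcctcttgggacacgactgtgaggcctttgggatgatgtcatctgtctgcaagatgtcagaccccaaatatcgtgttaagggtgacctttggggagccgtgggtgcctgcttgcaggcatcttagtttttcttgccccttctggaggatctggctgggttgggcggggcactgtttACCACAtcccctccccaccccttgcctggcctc
Lck start 1: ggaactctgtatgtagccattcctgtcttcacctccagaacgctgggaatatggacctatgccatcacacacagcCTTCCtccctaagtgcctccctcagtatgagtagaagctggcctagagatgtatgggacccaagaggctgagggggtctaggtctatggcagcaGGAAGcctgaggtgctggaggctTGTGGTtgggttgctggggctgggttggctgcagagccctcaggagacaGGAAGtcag
Lck start 2: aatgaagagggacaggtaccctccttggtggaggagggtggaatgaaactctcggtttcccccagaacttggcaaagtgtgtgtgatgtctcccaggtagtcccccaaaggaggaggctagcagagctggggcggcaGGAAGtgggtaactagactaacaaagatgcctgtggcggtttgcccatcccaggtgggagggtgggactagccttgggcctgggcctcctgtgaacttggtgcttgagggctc
Lat: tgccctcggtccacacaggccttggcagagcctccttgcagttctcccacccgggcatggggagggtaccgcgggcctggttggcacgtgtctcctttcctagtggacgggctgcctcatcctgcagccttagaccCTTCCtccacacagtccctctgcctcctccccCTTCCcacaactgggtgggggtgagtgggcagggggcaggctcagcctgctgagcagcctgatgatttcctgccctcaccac
Cd5: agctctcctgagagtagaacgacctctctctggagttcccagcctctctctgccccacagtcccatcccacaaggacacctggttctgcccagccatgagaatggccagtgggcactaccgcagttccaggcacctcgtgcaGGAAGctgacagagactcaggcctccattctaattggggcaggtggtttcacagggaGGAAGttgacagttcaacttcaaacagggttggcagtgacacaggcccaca
Zap70 start 1: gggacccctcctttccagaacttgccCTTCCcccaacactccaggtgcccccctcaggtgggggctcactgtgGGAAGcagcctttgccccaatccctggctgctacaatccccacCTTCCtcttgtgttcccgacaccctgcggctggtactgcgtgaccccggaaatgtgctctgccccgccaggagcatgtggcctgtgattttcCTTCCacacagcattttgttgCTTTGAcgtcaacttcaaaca
No base of these windows lies in 2 matches. The RUNX letters stand in the Il21r window and in the first Lck window, and ETS letters in every window shown but that of Il21r. The second Zap70 window, not shown, holds 1 RUNX match and 4 ETS matches, and the third holds 0 of either. Of the 34 genes, 27 have a window in the RefSeq table, with 31 windows in all. TGTGGT was found in 12 of the 31 windows (38.7%), beside 4614 of the 32851 windows of all genes, and GGAAG in 23 (74.2%), beside 64.1%. Genes with several start sites have several windows, and those of Ncr1 overlap and hold the same RUNX matches. By gene, TGTGGT was found in 11 and GGAAG in 21 of the 27. CTTTGA was in 3 windows (9.68%), beside 13.8%, and GGTGTGA in 2 (6.45%), beside 3.33%. A match only says that these letters are in the window.

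The T cell receptor group held the CD3 chains (Cd3d, Cd3e, Cd3g and Cd247, the zeta chain), the adhesion receptor Cd2, the inhibitory receptor Cd5 and the coreceptors Cd4, Cd8a and Cd8b1. All 9 were tested: 8 had a lower and 1 a higher fitted level in LKO, 5 had an unadjusted p under 0.05 and 0 an adjusted one, and the median log2 fold change was -0.90. Fewer cells that carry these transcripts and less RNA per cell cannot be told apart in whole tissue, here or in the groups that follow. Nor can the cell types that the transcripts came from be told.

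Cd5 (ENSMUSG00000024669, chr19:10717116-10739002, GRCm38) is a surface receptor of T cells that dampens T cell receptor signals. Cd5 stood at 0.234, 0.324, 0.633, 0.209 and 0.201 CPM in Flox libraries 1 to 5 and at 0.133, 0.211, 0.0423, 0.0470 and 0.0749 CPM in LKO libraries 1 to 5. The 5 Flox libraries spanned 0.201 to 0.633 CPM, with Flox 3 far above the rest, and only LKO 2 reached into that range. Its log2 fold change came to -1.62 ± 0.52 (SE; unadjusted p = 0.00929 by edgeR's quasi-likelihood test). Cd5 reached the filter's level in 4 Flox libraries but only 1 LKO library, so it was tested mainly through its Flox levels. Cd3d (ENSMUSG00000032094, chr9:44981786-44987339) encodes the delta chain of CD3. Cd3d stood at 0.156, 0.931, 1.11, 0.663 and 0.292 CPM in Flox libraries 1 to 5 and at 0.133, 0.401, 0.0846, 0.141 and 0.225 CPM in LKO libraries 1 to 5. Flox 2, 3 and 4 lay above every LKO library, whereas Flox 1 and 5 lay within the LKO range. For Cd3d the log2 fold change was -1.66 ± 0.57 (SE; edgeR unadjusted p = 0.0128), and without Flox 2 and 3 it was -0.90 (edgeR unadjusted p = 0.153).

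Cd247 (ENSMUSG00000005763, chr1:165788681-165877277) encodes the zeta chain, which carries most of the signalling motifs of the complex. Cd247 stood at 0.0389, 0.445, 0.568, 0.576 and 0.621 CPM in Flox libraries 1 to 5 and at 0.0444, 0.0845, 0.148, 0.188 and 0.243 CPM in LKO libraries 1 to 5. Flox 1 was the lowest library of all 10, and the other 4 Flox libraries lay above every LKO library. The filter's level was reached in 4 Flox libraries but only 1 LKO library. The log2 fold change was -1.64 ± 0.61 (SE; edgeR unadjusted p = 0.0188). These counts are uncertain, because 3007 of the 5329 exon bases of Cd247 (56.4%) are shared with Pou2f1 on the opposite strand, and strandedness of the counting is not given in the sources used here. The fold changes of the other CD3 chains were smaller, which was not tested against Cd3d or Cd247: -0.70 ± 0.39 for Cd3g (edgeR unadjusted p = 0.0996) and -0.66 ± 0.44 for Cd3e (edgeR unadjusted p = 0.154). Summed over the 4 chains, the Flox libraries had 2.24 ± 0.72 CPM and the LKO libraries 1.06 ± 0.38 CPM (SD, n = 5 each), with 4 of 5 Flox libraries above the highest LKO library. Without Cd247 the sums were 1.79 ± 0.57 and 0.915 ± 0.317 CPM, with 3 of 5 Flox libraries above the highest LKO library.

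Cd2 (ENSMUSG00000027863, chr3:101275899-101287939) encodes an adhesion receptor of T and NK cells. Cd2 stood at 0.506, 1.42, 1.004, 1.06 and 0.621 CPM in Flox libraries 1 to 5 and at 0.155, 0.380, 0.719, 0.587 and 0.618 CPM in LKO libraries 1 to 5. Flox 2, 3 and 4 stood above all LKO libraries, and Flox 1 and 5 lay among them. Cd2 had a log2 fold change of -0.90 ± 0.40 (SE; edgeR unadjusted p = 0.0450), and its p reached 0.123 when single libraries were left out, passing 0.05 without any of Flox 2, 3 and 4 or LKO 1, 2 and 4.

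Cd8b1 (ENSMUSG00000053044, chr6:71322788-71337494) encodes the beta chain of CD8, the coreceptor of killer T cells. Cd8b1 stood at 0.156, 1.80, 1.11, 0.454 and 0.420 CPM in Flox libraries 1 to 5 and at 0.133, 0.507, 0.254, 0.282 and 0.206 CPM in LKO libraries 1 to 5. Flox 2 and 3 stood apart, and the other 3 Flox libraries lay inside the LKO range. The log2 fold change of -1.50 ± 0.60 (SE; edgeR unadjusted p = 0.0271) was -0.32 without Flox 2 and 3 (edgeR unadjusted p = 0.544), and single libraries left out (Flox 2 or 3, or LKO 1, 3 or 5) took its p above 0.05, to at most 0.112. Cd8a, its partner chain, had a mean of 0.468 ± 0.238 CPM over the Flox and 0.299 ± 0.228 over the LKO libraries (SD, n = 5 each; -0.63 ± 0.52 SE, edgeR unadjusted p = 0.248).

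Cd4 (ENSMUSG00000023274, chr6:124864692-124888221), the coreceptor of helper T cells, which mouse dendritic cells and some macrophages also carry, had the higher mean in LKO. Cd4 stood at 0.915, 0.971, 0.742, 1.45 and 0.566 CPM in Flox libraries 1 to 5 and at 0.444, 1.31, 2.01, 2.70 and 0.562 CPM in LKO libraries 1 to 5. LKO 2, 3 and 4 held 3 of the highest 4 levels and LKO 1 and 5 the lowest 2, so the LKO range enclosed that of Flox. The log2 fold change was 0.59 ± 0.47 (SE; edgeR unadjusted p = 0.231). The sum of Cd8a and Cd8b1 divided by Cd4 gave 1.46 ± 1.02 over the Flox and 0.583 ± 0.369 over the LKO libraries (SD, n = 5 each), with 3 Flox libraries above the highest LKO library and Flox 1 and 4 within the LKO range.

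**Figure D3:**
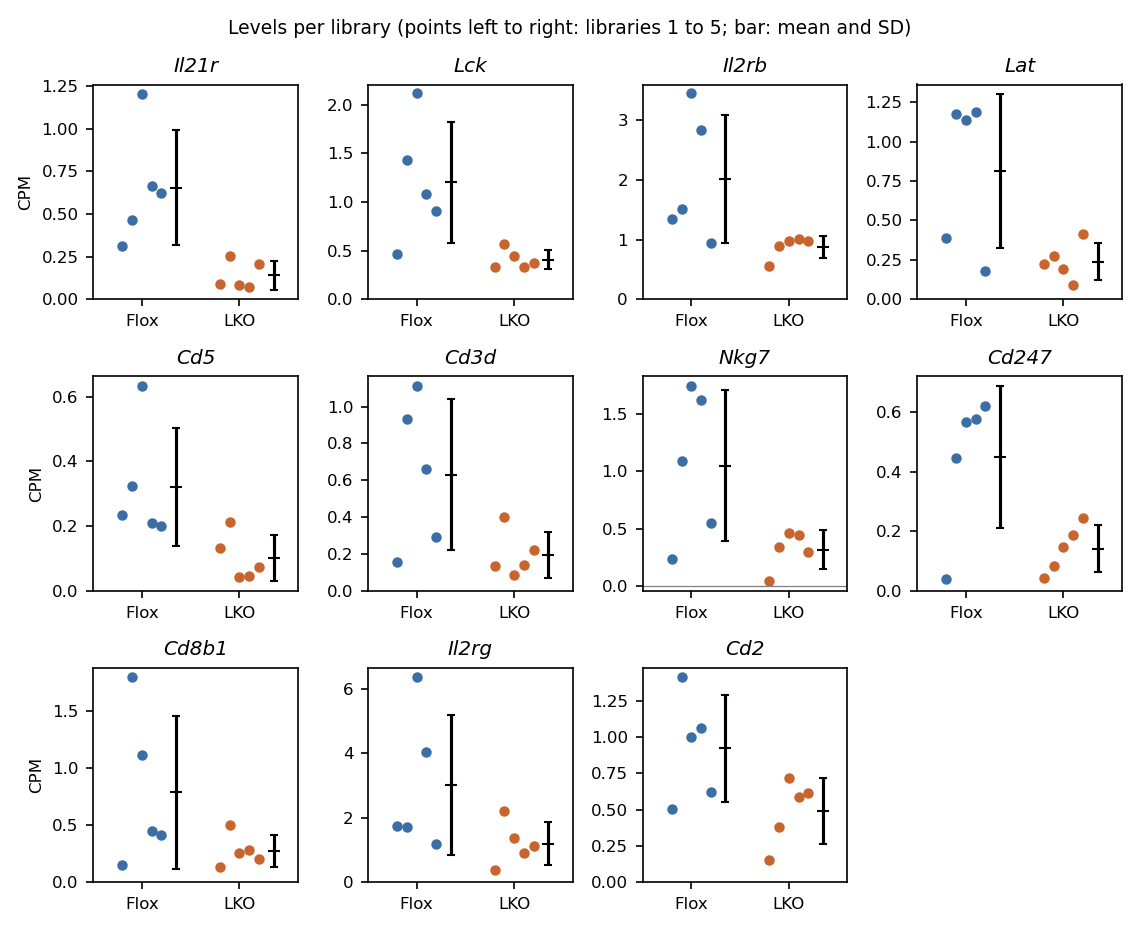
CPM (vertical axis, from 0 in each panel) of the 11 genes with an unadjusted p under 0.05, in the 5 Flox and the 5 LKO libraries (points, libraries 1 to 5 from left to right), with the mean and SD as a bar. Only for Il21r does every Flox point (lowest 0.312 CPM) lie above every LKO point (highest 0.253 CPM).

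Of the 3 proximal signalling genes, Lck and Lat had lower fitted levels in LKO with an unadjusted p under 0.05, and Zap70 did not. Lck (ENSMUSG00000000409, chr4:129548344-129573641) encodes the kinase that starts the T cell receptor signal. Lck stood at 0.467, 1.44, 2.12, 1.08 and 0.914 CPM in Flox libraries 1 to 5 and at 0.333, 0.570, 0.444, 0.329 and 0.374 CPM in LKO libraries 1 to 5. Flox 1 lay inside the LKO range and the other 4 Flox libraries above it. Lck had a mean of 1.20 ± 0.619 CPM over the Flox and 0.410 ± 0.101 over the LKO libraries (SD, n = 5 each), and its log2 fold change was -1.54 ± 0.37 (SE; edgeR unadjusted p = 0.00137), with p between 0.000156 and 0.00452 when any 1 library was left out. Lat (ENSMUSG00000030742, chr7:126363824-126369570) encodes the membrane scaffold on which the signal branches. Lat stood at 0.389, 1.17, 1.14, 1.19 and 0.183 CPM in Flox libraries 1 to 5 and at 0.222, 0.275, 0.190, 0.0939 and 0.412 CPM in LKO libraries 1 to 5. Flox 2, 3 and 4 were tightly together above all LKO libraries, and Flox 1 and 5 were not. Its log2 fold change was -1.74 ± 0.54 (SE; edgeR unadjusted p = 0.00684), or -1.28 without Flox 2 and 3 (edgeR unadjusted p = 0.0576).

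Zap70 (ENSMUSG00000026117, chr1:36761798-36782818) encodes the kinase that binds the phosphorylated CD3 chains. Zap70 stood at 12.9, 12.8, 9.08, 16.5 and 13.6 CPM in Flox libraries 1 to 5 and at 11.1, 10.5, 16.0, 12.6 and 13.0 CPM in LKO libraries 1 to 5. The groups overlapped almost completely, with a mean of 13.0 ± 2.65 CPM over the Flox and 12.6 ± 2.13 over the LKO libraries (SD, n = 5 each), and the log2 fold change was -0.04 ± 0.16 (SE; edgeR unadjusted p = 0.806). Zap70 stood 14.2 ± 8.8 times as high as Lck in Flox and 32.1 ± 7.9 times in LKO by CPM, and it made up 42.2 ± 13.5% of the summed CPM of the 34 genes in Flox and 57.0 ± 10.1% in LKO. Its exons overlap no other annotated gene. Flox 3, the highest library for Lck, was the lowest for Zap70.

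The 4 cytokine receptor genes were Il2rb, shared by the receptors of interleukins 2 and 15, the common gamma chain gene Il2rg, and Il7r and Il21r, which pair with it. All 4 had lower fitted levels in LKO, 3 with an unadjusted p under 0.05, and the median log2 fold change was -1.29. Il21r (ENSMUSG00000030745, chr7:125603429-125633570), the receptor of a helper T cell cytokine, is also carried by B and NK cells. Il21r stood at 0.312, 0.465, 1.20, 0.663 and 0.621 CPM in Flox libraries 1 to 5 and at 0.0887, 0.253, 0.0846, 0.0704 and 0.206 CPM in LKO libraries 1 to 5. It was the only 1 of the 24 tested genes with every Flox library above every LKO library, beside 0.371% of all tested genes. It reached the filter's level in 5 Flox libraries but only 1 LKO library, so it passed the filter through its Flox levels. The number of such genes was 4 without Flox 1, 3 without LKO 2 and 2 without Flox 5. Separation is easier with fewer libraries, and the share of all genes was not counted there. Il21r had a mean of 0.652 ± 0.337 CPM over the Flox and 0.141 ± 0.0833 over the LKO libraries (SD, n = 5 each), and its log2 fold change was -2.17 ± 0.47 (SE; edgeR unadjusted p = 0.000603), with p at most 0.00212 when any 1 library was left out.

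Il2rb (ENSMUSG00000068227, chr15:78479256-78495271) is the chain through which resting NK and memory CD8 T cells sense interleukin 15. Il2rb stood at 1.34, 1.52, 3.45, 2.83 and 0.950 CPM in Flox libraries 1 to 5 and at 0.554, 0.887, 0.973, 1.01 and 0.973 CPM in LKO libraries 1 to 5. Only Flox 5 lay below the highest LKO libraries, and LKO 1 stood apart at the bottom. The log2 fold change was -1.19 ± 0.35 (SE; edgeR unadjusted p = 0.00506). Il2rg (ENSMUSG00000031304, chrX:101264378-101268255), the common gamma chain, is carried by all lymphocytes and by myeloid cells. Il2rg stood at 1.73, 1.72, 6.35, 4.05 and 1.19 CPM in Flox libraries 1 to 5 and at 0.399, 2.20, 1.38, 0.916 and 1.12 CPM in LKO libraries 1 to 5. Flox 3 and 4 stood above all LKO libraries and LKO 1 far below all others. Its log2 fold change of -1.32 ± 0.52 (SE; edgeR unadjusted p = 0.0290) had a p above 0.05 without Flox 3 or 4 or without LKO 1, 4 or 5 (p up to 0.0936), and 728 of its exon bases (30.5%) are also annotated to Gm20489, which held 0 counts.

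Il7r, the receptor of the survival cytokine of naive and memory T cells, had a mean of 0.431 ± 0.461 CPM over the Flox and 0.176 ± 0.154 over the LKO libraries (SD, n = 5 each; -1.27 ± 0.75 SE, edgeR unadjusted p = 0.119). Its Flox mean rested on Flox 2, at 1.23 CPM beside at most 0.349 CPM in the others.

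**Figure D4:**
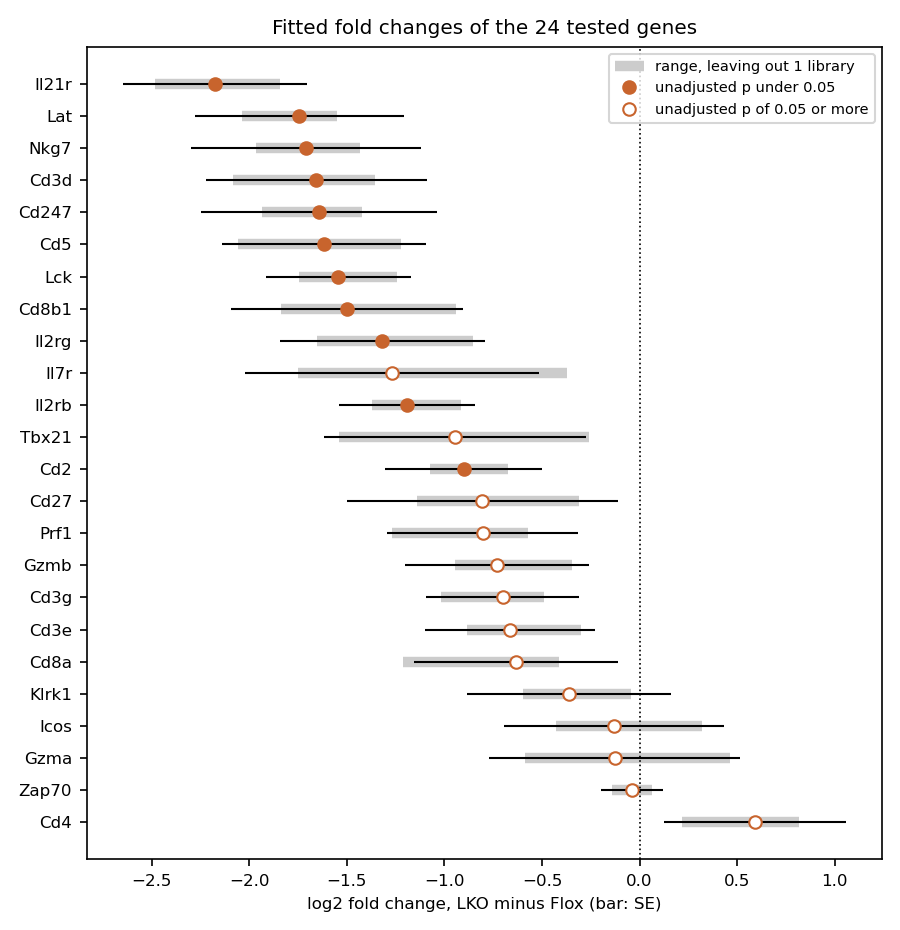
Fitted log2 fold change of LKO minus Flox (horizontal axis) for each of the 24 tested genes (vertical axis), with the SE as a thin bar, the range over 10 fits that each left out 1 library as a grey band, and filled circles for an unadjusted p under 0.05. Cd4, at 0.59, is the only point right of 0, and the grey band reaches past 0 for Icos, Gzma and Zap70.

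Of the 7 cytotoxic effector genes, 4 passed the filter (Gzma, Gzmb, Prf1 and Nkg7), each with a lower fitted value in LKO, 1 with an unadjusted p under 0.05, and a median log2 fold change of -0.77. Nkg7 (ENSMUSG00000004612, chr7:43437073-43438249) encodes a granule membrane protein of killer cells needed for their degranulation. Nkg7 stood at 0.234, 1.09, 1.75, 1.62 and 0.548 CPM in Flox libraries 1 to 5 and at 0.0444, 0.338, 0.465, 0.446 and 0.299 CPM in LKO libraries 1 to 5. Flox 1 lay inside the LKO range and the other 4 Flox libraries above it, and LKO 1 held only 2 counts. Nkg7 had a log2 fold change of -1.71 ± 0.59 (SE; edgeR unadjusted p = 0.0134), or -1.33 without Flox 2 and 3 (edgeR unadjusted p = 0.0745). The genes of the killing proteins themselves had smaller fitted changes, a contrast that was not tested: Prf1, perforin, had a log2 fold change of -0.80 ± 0.49 (edgeR unadjusted p = 0.127), the serine protease granzyme B (Gzmb) -0.73 ± 0.47 (edgeR unadjusted p = 0.147) and granzyme A (Gzma) -0.13 ± 0.64 (edgeR unadjusted p = 0.847). Gzma was highest in Flox 4, and its direction turned when Flox 4, LKO 1 or LKO 4 was left out.

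Below the filter, the 5 Flox libraries against the 5 LKO libraries held 62 against 23 counts of Gzmk, a granzyme of memory-like CD8 T cells, 19 against 9 of Fasl, the death ligand, and 26 against 3 of Ifng, interferon gamma. Of the 26 Flox counts of Ifng, 22 were in Flox 3 and 4. Of the exon bases of Ifng, 336 (25.9%) are also annotated to Gm49751, which held 6 counts. The cytotoxic genes summed to 1.07, 2.08, 4.15, 5.16 and 1.72 CPM in Flox libraries 1 to 5 and 0.466, 1.99, 1.44, 1.10 and 1.91 CPM in LKO libraries 1 to 5, with Flox 2, 3 and 4 above every LKO library.

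The NK receptor genes were near the limit of what these libraries can show. Klrk1, the activating receptor NKG2D of NK and CD8 T cells, was the only 1 of 4 tested, with a mean of 0.919 ± 0.619 CPM over the Flox and 0.713 ± 0.376 over the LKO libraries (SD, n = 5 each; -0.36 ± 0.52 SE, edgeR unadjusted p = 0.500). Klrd1 (CD94), which had the highest level per length of the 4 in Flox, held 10, 15, 18, 10 and 4 counts in Flox libraries 1 to 5 and 0, 6, 6, 2 and 6 in LKO libraries 1 to 5. Klrd1 counts were higher in Flox 1 to 4 than in any LKO library, and Flox 5 lay within the LKO range. Ncr1 (NKp46), the receptor that marks NK cells most closely, had 35 Flox and 9 LKO counts, with 0 counts in LKO 1, 2 and 4 and in Flox 2. Klrb1c (NK1.1) was the exception, with 6 Flox and 17 LKO counts. The Klr genes have close paralogs, so reads may be split between them or lost.

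The T-box factors direct the killer programmes of both cell types. Tbx21 (T-bet), the 1 of 2 that was tested, was higher in Flox 3 than in any other library. Tbx21 stood at 0.0974, 0.283, 0.895, 0.314 and 0.164 CPM in Flox libraries 1 to 5 and at 0.0444, 0.422, 0.0846, 0.235 and 0.112 CPM in LKO libraries 1 to 5. LKO 2 held the second highest level, and the other libraries of both groups overlapped. Tbx21 had a log2 fold change of -0.95 ± 0.67 (SE; edgeR unadjusted p = 0.184), and -0.11 without Flox 2 and 3. Eomes held 56 Flox counts, 27 of them in Flox 4, and 11 LKO counts, 8 of them in LKO 2. In the edgeR fit with no filter, 2 of the 10 sparse genes were lower at an unadjusted p under 0.05, beside 3.51% of all genes. They were Eomes (edgeR unadjusted p = 0.0179) and Ifng (edgeR unadjusted p = 0.0312).

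Of the 5 costimulatory and checkpoint receptor genes, only Cd27 and Icos were tested, and neither had an unadjusted p under 0.05. Icos stood at 0.195, 0.486, 0.524, 0.925 and 0.128 CPM in Flox libraries 1 to 5 and at 0.177, 0.718, 0.148, 0.493 and 0.524 CPM in LKO libraries 1 to 5. The groups overlapped over nearly their whole range, and the log2 fold change was -0.13 ± 0.57 (SE; edgeR unadjusted p = 0.821). Cd27, which promotes memory T cell survival, had a mean of 0.293 ± 0.208 CPM over the Flox and 0.166 ± 0.128 over the LKO libraries (SD, n = 5 each; -0.81 ± 0.69 SE, edgeR unadjusted p = 0.267). The inhibitory receptors were too sparse for a test: Pdcd1 (PD-1) had 45 Flox and 12 LKO counts, and Ctla4 14 and 2. Cd28, the costimulator that competes with Ctla4 for its ligands, had 54 and 32. Over the 10 genes below the filter, the summed counts were 374 in Flox and 138 in LKO, with no count above 34 in any library, and 9 of 10 had the lower mean CPM in LKO.

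Other genes of the same pathways, 135 symbols in 8 lists, were counted in the same fit. Of the 84 tested, 69 had a lower fitted level in LKO, beside 51.6% of all tested genes, 12 with an unadjusted p under 0.05, beside 4.33%, and 0 with an adjusted p under 0.05 by edgeR's quasi-likelihood test, and 0 were higher at an unadjusted p under 0.05. The median log2 fold change was -0.38, and -0.23 without Flox 2 and 3. Among T cell lineage genes and receptor loci (8 tested, 7 lower, median -0.70), Thy1, a pan-T surface protein, had 2.10 ± 0.88 CPM over the Flox and 0.978 ± 0.361 CPM over the LKO libraries, and Trbc2, a constant segment of the T cell receptor beta chain, had 1.24 ± 0.49 and 0.619 ± 0.217 CPM (SD, n = 5 each). Other receptor signalling genes (18 tested, 16 lower, median -0.30) included Rasgrp1, which activates Ras in T cells (-0.99 ± 0.48, SE), and 0 of the 18 had an unadjusted p under 0.05.

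Flox 3 had the highest sums of the cytokine and homing lists. Among other cytokine and receptor genes (12 tested, 10 lower, median -0.30), Jak3, the kinase bound to the common gamma chain, had 29.4 ± 14.9 CPM over the Flox and 14.5 ± 4.2 CPM over the LKO libraries (SD, n = 5 each). Its log2 fold change went from -1.02 to -0.42 without Flox 2 and 3. Among homing genes (17 tested, 14 lower, median -0.43), Cxcl9, a chemokine that interferon gamma induces and that draws in activated T cells, was at 558 CPM in Flox 3, at 14.6 to 46.0 CPM in the other Flox libraries and at 14.5 ± 3.8 CPM in LKO. Its log2 fold change of -3.19 shrank to -1.004 without Flox 2 and 3 (edgeR unadjusted p = 0.0219), and that of Cxcl10 went from -1.95 to -0.72. Cd274, which encodes the PD-1 ligand PD-L1, was likewise highest in Flox 3, at 18.2 CPM beside 1.07 to 3.89 CPM in the other Flox libraries and 1.47 ± 0.83 CPM in LKO, and its log2 fold change went from -1.90 to -0.90 without Flox 2 and 3.

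The remaining lists held few such values. Other costimulatory genes (12 tested, 9 lower, median -0.48) had Btla, an inhibitory receptor of lymphocytes, at -1.10 ± 0.41 (SE), and it was -1.42 without Flox 2 and 3. Other cytotoxic genes (8 tested, 6 lower, median -0.38) had Srgn, the granule proteoglycan, at -0.94 ± 0.34 and Rab27a, which docks granules, at -0.41 ± 0.29. NK receptors and adaptors (6 tested, 5 lower, median -0.43) had Slamf7 at -1.09 ± 0.44 and Fcer1g at -0.63 ± 0.47. Regulatory and helper factors (3 tested, 2 lower, median -0.16) had Maf at -0.16 ± 0.14 and Bcl6 at -0.25 ± 0.56.

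Markers of all leukocytes and of myeloid cells mostly had lower fitted values in LKO too. Those of B cells and plasma cells were mixed, with medians of -0.04 (6 of 9 lower) and -0.12 (5 of 8 lower). Without Flox 2 and 3 these medians were -0.42 and -0.13. In that fit the median was -0.54 for pan-leukocyte, -0.43 for Kupffer cell and -0.63 for monocyte and macrophage markers. It was -0.37 for dendritic cell and -0.22 for neutrophil markers, so the B cell median then lay among those of myeloid cells. All 10 tested pan-leukocyte markers had a lower fitted value in LKO (median log2 fold change -0.71, 0 with an unadjusted p under 0.05), with sums of 68.9 to 142 CPM in Flox and 41.9 to 101 CPM in LKO. Ptprc (CD45), carried by all leukocytes, was at 8.27 ± 3.80 and 5.54 ± 3.04 CPM (SD, n = 5 each). Kupffer cell markers (10 of 10 lower, median -0.37), markers of monocytes and recruited macrophages (10 of 10, -0.62), dendritic cells (6 of 7, -0.58) and neutrophils (5 of 6, -0.57) had sums of 125 to 684, 49.8 to 141, 159 to 345 and 1.44 to 22.6 CPM in Flox and 81.3 to 544, 27.9 to 120, 140 to 221 and 2.51 to 22.1 CPM in LKO. Of these myeloid markers, 3 of monocytes and recruited macrophages and 1 of neutrophils had an unadjusted p under 0.05 on the lower side. Over all tested genes, 4.33% were lower at that p, and 51.6% had a lower fitted value. The dendritic cell sums were mostly 1 gene, Bst2, at a mean of 238 CPM in Flox and 173 CPM in LKO. The means of the whole dendritic cell list were 245 and 177 CPM. None of the marker genes was at 0 in all libraries, and the part of leukocyte content in the differences of single genes was not tested.

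Without Zap70 and Cd4, the other 32 genes summed to 9.31, 18.7, 29.7, 25.3 and 10.8 CPM in Flox libraries 1 to 5 and 3.93, 12.3, 9.31, 7.39 and 9.83 CPM in LKO libraries 1 to 5. Flox 2, 3 and 4 lay above every LKO library, and Flox 1 and 5 lay inside the LKO range. The Flox mean was 2.19 times that of LKO. Without Flox 2 and 3 it was 1.77 times, a mean that still held Flox 4 at 25.3 CPM. Set against the summed pan-leukocyte markers, the same 32 genes made 18.4 ± 4.2% over the Flox and 12.3 ± 1.8% over the LKO libraries (SD, n = 5 each), with 4 of 5 Flox libraries above the highest LKO library at 14.1% and Flox 1, at 13.1%, below it.

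**Figure D5:**
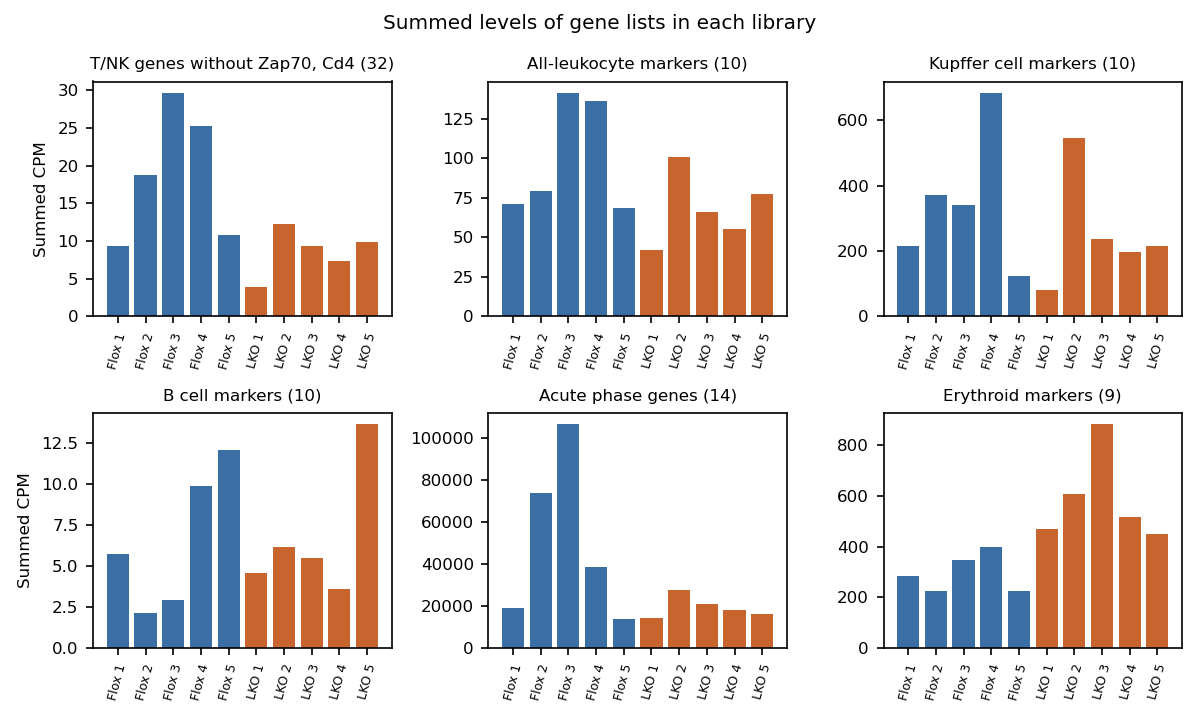
Summed CPM (vertical axis, from 0 in each panel) of 6 gene lists in each of the 10 libraries (bars, blue for Flox and orange for LKO). The bars of the 32 T and NK cell genes without Zap70 and Cd4 are highest in Flox 3 at 29.7 CPM and lowest in LKO 1 at 3.93 CPM, the acute phase genes are highest in the same Flox library, and the erythroid markers are higher in every LKO library than in any Flox library.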

How the data were processed

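Whole-number gene counts of 10 mouse liver libraries were deposited in a single table, 1 column per library, and its header and totals show no scaling. STAR 2.5.1a, featureCounts 1.4.6-p5, Subread, bcl2fastq and build GRCm38 are named in the submitters' processing notes. Neither strandedness nor the handling of reads with several matches is given in the sources used here. Of 55774 lines, 287 repeats were dropped. Flox columns are numbered as their titles are, and LKO columns, numbered otherwise than the LKO titles, were used as members of their group. Counts from 1 to 20 were even in 67.3 to 72.6% of cases per library, beside 49.3 to 50.9% for counts over 100 and up to 1000, so low counts are not independent single reads, and no counting interval is given.

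The comparison used edgeR 4.0.16 (R 4.3.3) with filterByExpr, TMM (factors 0.963 to 1.04) and the robust quasi-likelihood F test, two-sided, adjusted by Benjamini-Hochberg over 15894 genes. Alternatives were DESeq2 1.42.0, limma-voom (3.58.1), library totals, other filters, the column number as a block and libraries left out. Same-numbered columns deviated together by 0.0736 to 0.354 (correlation), over 0.1 in 2 of 5 pairs, so the numbers were not taken as pairs.

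The members and lists were chosen with earlier results of these data known. Values per library are given for tested members with an unadjusted p under 0.05 or groups that do not overlap and for the member of each role with the highest level per length, summed counts for members below the filter, and up to 2 genes of each other list with the smallest p; Cd4 was added for its direction. A few genes that the rule would name are left out here. Positions are from GENCODE M21 (55141 of the 55487 IDs matched) and sequences from RefSeq (GRCm38.p6).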

Additional observations from a re-analysis of the deposited data

Results flagged for a closer look

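Each of the 34 genes, and 2 sums over them, was looked at in the 5 Flox and in the 5 LKO libraries. In 10 of these 72 groups 1 library stood apart from the other 4 by more than Dixon's critical value of 0.71 for its gap over the range. Chance flags about 1 in 20 groups.

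In Flox, library 3 stood apart on the high side for Cd5, the receptor that dampens T cell receptor signals (0.633 CPM, next 0.324), and for Tbx21, T-bet (0.895 CPM, next 0.314). Flox 2 was high for the interleukin 7 receptor gene Il7r (1.23 CPM, next 0.349), and Flox 4 for granzyme A, Gzma (0.733 CPM, next 0.284). Flox 5 had 0 CPM of the death ligand gene Fasl, beside at least 0.0779 CPM in the other Flox libraries.

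In LKO, library 2 was high for Cd8a (0.697 CPM, next 0.262), for Eomes (0.169 CPM, next 0.0423) and for Pdcd1 (0.169 CPM, next 0.0444). It was also high for Ctla4 (0.0422 CPM, which is 2 counts, the others at 0). LKO 1 was low for Il2rb (0.554 CPM, next 0.887).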

How the results depend on the processing

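No alternative with edgeR or limma-voom gave a gene past an adjusted p of 0.05, whereas DESeq2 called 11 of all genes (5 higher, 6 lower in LKO). DESeq2 gave an adjusted p for 1 of the 24 T and NK cell genes, Zap70 (0.948), and NA for 23. Of the 24 genes, 11 were lower at an unadjusted p under 0.05 by edgeR (beside 4.33% of all genes). The number was 7 by limma-voom (beside 3.03%) and 3 without Flox 2 and 3 together (beside 1.39%). Where at least 1 CPM in 5 libraries was asked for, only Zap70 and Il2rg were left of the 24. Of them 1, Il2rg, was lower at that p (beside 4.44%). With 1 library left out, the number ranged from 8 to 13 of the 24 (beside 1.94 to 6.55% of all genes). In all of these fits 8 of the 11 stayed under 0.05. The median log2 fold change ranged from -1.24 to -0.69 over the same fits. The number of genes with all Flox above all LKO libraries ranged from 1 to 4, being 4 without Flox 1, 3 without LKO 2 and 2 without Flox 5. The share of all genes was counted only with all libraries (0.371%), and separation is easier with fewer. With the column number as a replicate block, 11 genes were lower at an unadjusted p under 0.05, beside 4.77% of all genes, and the median was -0.92; 2 of 5 columns correlated best with their own number. Of 386 fold changes of single genes under alternatives, 9, of 3 genes, turned their direction and 377 did not: Zap70 (-0.14 to 0.06 with 1 library left out, the highest, 0.062, without Flox 4), Gzma (-0.59 to 0.46) and Icos (-0.43 to 0.32). Library totals moved the median of all genes to -0.05. Depth limits the 10 genes below the filter, for which a difference was not detectable by the main test.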

Other observations

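B cell and plasma cell genes, those of the other lymphocyte lineage, had medians near 0 with all libraries in the fit. Of the 9 tested B cell markers, 6 had a lower and 3 a higher fitted value in LKO (median log2 fold change -0.04, 0 with an unadjusted p under 0.05 by edgeR's quasi-likelihood test), and their summed level was 2.12 to 12.1 CPM in Flox and 3.59 to 13.7 CPM in LKO. The lowest B cell sums of Flox were in libraries 2 and 3, at 2.12 and 2.90 CPM, which had high T cell sums. Without them, the median of the B cell markers was -0.42. The plasma cell markers summed to 506 to 563 CPM in Flox and 480 to 629 CPM in LKO, with a median log2 fold change of -0.12 over 8 tested genes. The difference between the lineages was not tested.

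Erythroid markers had the opposite direction to leukocyte genes: 8 of 8 tested had a higher fitted value in LKO. Of these, 6 had an unadjusted p under 0.05 by edgeR, beside 3.17% of all tested genes on the higher side. Their sums did not overlap (224 to 399 CPM in Flox, 450 to 883 CPM in LKO). Of all tested single genes, 0.535% had all Flox libraries below all LKO libraries. Hepatocyte markers summed to 59895 to 128269 CPM in Flox and 132007 to 159455 CPM in LKO, with 6 of 10 higher (median 0.15). At an unadjusted p under 0.05 by edgeR, 2 of them were higher, beside the same 3.17%. Markers of the sinusoidal endothelium had a median of -0.18, with 6 of 10 lower.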
